A study of Mus musculus with 12 samples.

Results

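Pre-basophils were compared with the cells before and after them on the path to the mature basophil, to find genes that were transiently high or low at this stage. The comparison used 9 of the 12 bulk RNA-seq libraries of the series, 3 of which were pre-basophils. Every library came from wild-type C57BL/6J mice whose age was not given in the sources used here, and held cells sorted by flow cytometry and pooled from 4 animals. The groups of the bone marrow (BM), with 3 libraries each, were CD34+ basophil progenitors (BaPs, CD200R3+ cKit- CLEC12A-high), CD34- pre-basophils and mature basophils. Pre-basophils were CLEC12A-high CD9-low and are called immature basophil in the sample titles. Mature basophils were CLEC12A-low CD9-high. Another 3 libraries held mature basophils of the spleen. These were not compared in the choice of genes, but shared the count filter, scaling and estimate of spread with the other 9. A gene was described as a peak where its pre-basophil level lay above both BaP and BM mature basophils, and as a dip where it lay below both.

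Basophils, the rarest of the granulocytes, release histamine, lipid mediators and cytokines when IgE bound to its high-affinity receptor is cross-linked. Like other granulocytes they arise in the bone marrow from dividing progenitors, fill their granules with proteases while they still divide, and leave the cell cycle before they enter the blood. A gene can therefore fall, rise or pass through a maximum or minimum along this path, and only the last kinds separate an intermediate stage from a mixture of its neighbours. A bulk level cannot tell fewer cells of a type from less RNA per cell.

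Library totals ran from 3596108 to 8006769 counts in the 9 libraries, and 15083 of 32227 genes passed the count filter. The basophil marker list, with Mcpt8 and Prss34, summed to between 13302 and 71614 CPM in all 9 libraries. BaP replicate 3 stood apart from the other BaP libraries. It had 26743 genes with at least 1 count against 21937 and 22209, and 3.53% mitochondrial counts against 1.75% and 1.82%. CPM below are counts scaled to the TMM-adjusted library total. The summed level of the 13 T and NK cell markers tested, of 15 listed, was 26.3, 27.1 and 956 CPM in BaP replicates 1 to 3, 52.3, 68.2 and 59.01 in pre-basophils and 178, 199.6 and 216 in BM mature basophils. For 8 of 12 erythroid markers it was 54.7, 57.3 and 2489, 77.4, 91.3 and 82.7 and 218, 218 and 203 CPM, and for 9 of 12 B cell markers it was 41.1, 41.3 and 319.5 CPM in BaPs. The basophil list was lower in BaP replicate 3, at 68704, 63325 and 25556 CPM in BaPs. Results are therefore given with and without this library. The part of these markers in the results was not tested.

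The promoters of Slpi and Pglyrp1, which passed the fixed test of both differences without BaP replicate 3, of the granzyme gene Gzmc, and of Klf9, a gene that dipped, are shown so that the genes can be placed. Each is the 250 bases before the annotated start in RefSeq on GRCm38.p6, written 5′ to 3′ on the strand of the gene, with capitals marking any match to AGATAA (the motif of GATA factors), TTGCNNAA (C/EBP), TTCNNNGAA (STAT), TGTGGT (RUNX), CACGTG (E-box) or CCAAT on either strand. The gene spans given below are from GENCODE. For Slpi and Pglyrp1 that span contains the window, so the start used here is not that of the GENCODE span.
Slpi promoter, chr2:164356508-164356757, minus strand: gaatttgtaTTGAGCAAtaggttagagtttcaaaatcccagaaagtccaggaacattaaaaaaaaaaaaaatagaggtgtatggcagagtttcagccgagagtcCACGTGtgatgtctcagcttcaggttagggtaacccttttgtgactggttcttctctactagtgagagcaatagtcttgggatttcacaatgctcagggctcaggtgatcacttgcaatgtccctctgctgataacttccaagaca
Pglyrp1 promoter, chr7:18884440-18884689, plus strand: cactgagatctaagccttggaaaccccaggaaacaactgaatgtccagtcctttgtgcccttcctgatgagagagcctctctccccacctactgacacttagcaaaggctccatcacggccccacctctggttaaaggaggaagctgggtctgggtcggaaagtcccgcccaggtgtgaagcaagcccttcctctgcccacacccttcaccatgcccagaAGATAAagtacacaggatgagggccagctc
Gzmc promoter, chr14:56234658-56234907, minus strand: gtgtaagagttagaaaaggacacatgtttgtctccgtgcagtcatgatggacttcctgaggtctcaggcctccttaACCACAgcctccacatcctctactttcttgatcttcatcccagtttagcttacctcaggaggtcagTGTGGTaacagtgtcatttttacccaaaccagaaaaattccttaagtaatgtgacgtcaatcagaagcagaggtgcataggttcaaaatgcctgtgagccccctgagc
Klf9 promoter, chr19:23140976-23141225, plus strand: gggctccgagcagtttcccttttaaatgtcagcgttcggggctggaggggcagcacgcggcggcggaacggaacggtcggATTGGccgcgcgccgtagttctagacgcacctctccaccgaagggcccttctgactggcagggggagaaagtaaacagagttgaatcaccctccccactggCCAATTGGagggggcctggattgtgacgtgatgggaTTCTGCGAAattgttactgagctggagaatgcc
The Slpi window held 1 C/EBP match and 1 E-box, the Pglyrp1 window 1 GATA match, and the Gzmc window 2 RUNX matches, 1 on each strand. The Klf9 window held 1 STAT match and 3 CCAAT matches, 2 of which overlapped. Among all 32851 promoter windows of this length, 9.56% held the C/EBP letters, 6.02% the E-box, 9.99% the GATA letters, 14.05% the RUNX letters, 7.02% the STAT letters and 33.8% CCAAT. Only 65.8% of the genes tested had a promoter in the table. Of those with one, 43.4% held CCAAT. This was 64.7% for the 184 called above both neighbours in the contrast given below, and 30% for the 20 called below both. In the same order, the E-box stood at 11.35%, 9.78% and 15%, C/EBP at 10.4%, 13.04% and 15%, and STAT at 8.49%, 6.52% and 10%. GATA stood at 9.01%, 11.96% and 0%, and RUNX at 15.7%, 15.2% and 0%. The differences were not tested.

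Few genes were called at a maximum or minimum at the pre-basophil stage, and most genes called above both neighbours lay nearer to BaP. With 3 libraries per group, the lack of a call does not show that a gene had no maximum or minimum. By fitted level alone, with no call required, 18.8% of genes lay above both neighbours and 21.2% below both. Against the equal-weight mean of BaP and BM mature basophils on the log2 scale, 420 genes (2.78% of 15083) were higher in pre-basophils and 55 (0.365%) lower at an adjusted p under 0.05 in edgeR's quasi-likelihood test. Of these, 186 of the 420 and 10 of the 55 had a level between their neighbours, so that 234 called genes (1.55%) lay above both and 45 (0.298%) below both. Among the 234, the median log2 difference was 0.28 to BaP and 1.88 to BM mature, and BaP was the nearer neighbour for 220. The smaller of the 2 differences was under 1.2-fold for 116 of the 234 and at least 2-fold for 7. Among the 45, the medians were -0.46 and -0.81, and 36 were nearer to BaP. For scale, 647 genes (4.29%) were above BaP and 421 (2.79%) below it, and 2460 (16.3%) were above BM mature and 1652 (11%) below it. Without BaP replicate 3 the contrast called 613 genes higher (4.16%) and 161 lower (1.09%), of which 232 (1.58%) lay above and 109 (0.74%) below both. Of the 234 and 45 genes, 152 and 38 kept their call. With the block it called 574 higher (3.81%) and 114 lower (0.756%), of which 324 (2.15%) lay above and 77 (0.511%) below both.

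The test fixed for a peak or dip took the larger of the 2 pairwise p values, adjusted over all genes, and called no gene in either direction with edgeR. At an unadjusted larger p under 0.05 there were 104 peaks (0.69%) and 125 dips (0.829%), and the smallest adjusted value was 0.175, for Slpi. These unadjusted counts were 96 (0.652%) and 105 (0.713%) without BaP replicate 3. DESeq2 called 1 peak, limma-voom none, and neither called a dip. With the replicate number as a block, Slpi passed (adjusted p = 0.0388), and without BaP replicate 3, Slpi and Pglyrp1 passed (adjusted p = 0.0152 for both), which is 0.00663% and 0.0136% of the genes tested. A looser rule, in which each pairwise comparison had its own adjusted p under 0.05, gave 16 genes above both neighbours and 16 below both (0.106% each), and these are the genes described next. This rule does not set the error rate of the pair of comparisons together. It gave 31 genes above (0.206%) and 24 below (0.159%) with the block. Without BaP replicate 3 it gave 27 above (0.183%) and 33 below (0.224%), which shared 13 and 14 genes with the lists of 16, that is 81.2% and 87.5% of those lists and 48.1% and 42.4% of the longer ones. Without BaP replicate 1 it gave 29 and 22. Without pre-basophil replicate 1, 2 or 3 it gave 6, 7 or 4 above and 0, 1 or 2 below, and without BM mature replicate 1, 2 or 3 it gave 10, 11 or 11 above and 8, 10 or 12 below. Of the 32 genes, 3 (Slpi, Pglyrp1 and E2f2) kept both calls without each library, and 27 lost one without pre-basophil replicate 1, and likewise 27 without replicate 2 or 3. Scaling to the library total ended a call of 16, use of the 9 BM libraries only of 11, absence of a low-count filter of 10, RLE factors, the TCC-like scheme (TMM factors computed again without the genes called, and a likelihood ratio test) or DESeq2 of 6 each, limma-voom of 4, upper-quartile scaling of 2, the block of 1 and a minimum change of 1.5-fold of all 32. In all 32 genes the 3 pre-basophil libraries lay outside the range of the 6 neighbours, as they did for 218 genes above (1.45%) and 200 below (1.33%) among all tested, and for 268 (1.82%) and 298 (2.02%) without BaP replicate 3. The calls were made on these same values, so this lack of overlap is no further support for them.

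**Figure D1:**
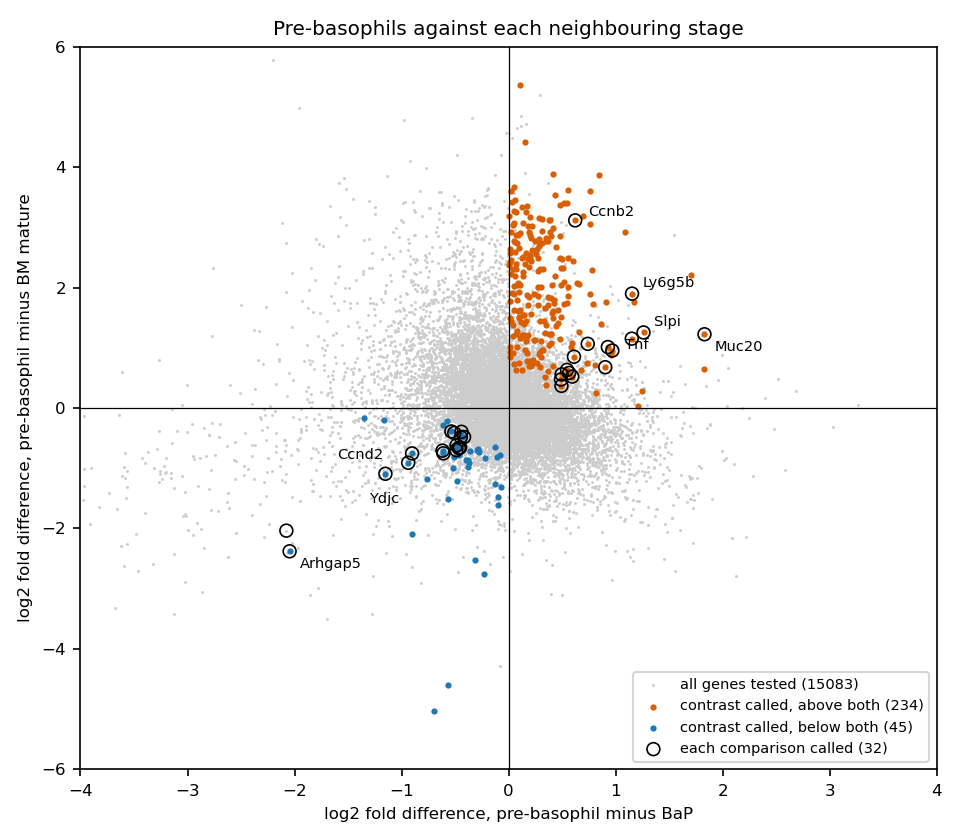
Log2 fold difference of pre-basophils to BaPs (x axis) and to BM mature basophils (y axis) for the genes tested, of which 64 lie beyond the axes. The 234 called genes above both neighbours (orange) crowd against the vertical line at 0, near the BaP level, whereas the 16 genes above and 16 below with each comparison called (circles) lie off both axes.

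Slpi and Pglyrp1, which passed the fixed test without BaP replicate 3, both encode secreted proteins. Slpi (chromosome 2, 164354070 to 164389095, GRCm38) encodes secretory leukocyte peptidase inhibitor, which blocks neutrophil serine proteases. It stood at 272, 257 and 283 CPM in the pre-basophil libraries, 127, 129 and 84.5 in BaPs and 105, 135 and 99.96 in BM mature basophils. Its 3 pre-basophil libraries were close to each other and above all 6 neighbours, and the log2 difference was 1.26 against BaP (SE 0.19, adjusted p = 0.00172) and 1.26 against BM mature (SE 0.19, adjusted p = 0.000295), or 2.4-fold and 2.39-fold. Pglyrp1 (chromosome 7, 18871331 to 18890459), a peptidoglycan recognition protein of granules, stood at 532, 515 and 589.8 CPM in the pre-basophil libraries, 332, 325 and 219 in BaPs and 325, 353 and 345 in BM mature basophils. BaP replicate 3 was its lowest library, and the difference was 0.90 against BaP (SE 0.14, adjusted p = 0.00242) and 0.68 against BM mature (SE 0.14, adjusted p = 0.00293). Both genes passed each comparison without any 1 of the 9 libraries.

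Since neutrophils express both genes, their marker list is given beside them. The summed level of 12 neutrophil markers was 197, 768 and 2226 CPM in BaP replicates 1 to 3, 449, 973 and 2056 in pre-basophils and 261, 297 and 279.9 in BM mature basophils. The range over the BaP libraries included that over the pre-basophil libraries only with BaP replicate 3. The list's median differences were 0.087 to BaP and 3.74 to BM mature, and 1.35 and 3.75 without that library. In fitted level 8 of the 12 lay above both neighbours (18.8% of all genes tested), and 11 without it (16.3%). In either fit 9 were called above BM mature (16.3% and 19.8% of all genes tested). Ltf (lactoferrin) stood at 17.6, 58.2 and 149.5 CPM in pre-basophils and 7.17, 49.3 and 126 in BaPs, and Ngp, another secondary granule gene, at 62.9, 141 and 367 and 16.01, 106 and 401. Of the 12 markers, 1 (Lcn2) was called above both neighbours in the contrast, against 7 with the block and 9 without BaP replicate 3. The part of neutrophil RNA in the levels of Slpi, Pglyrp1 and the other genes was not tested. Ltf and Ngp were picked from the marker list after their values were seen.

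**Figure D2:**
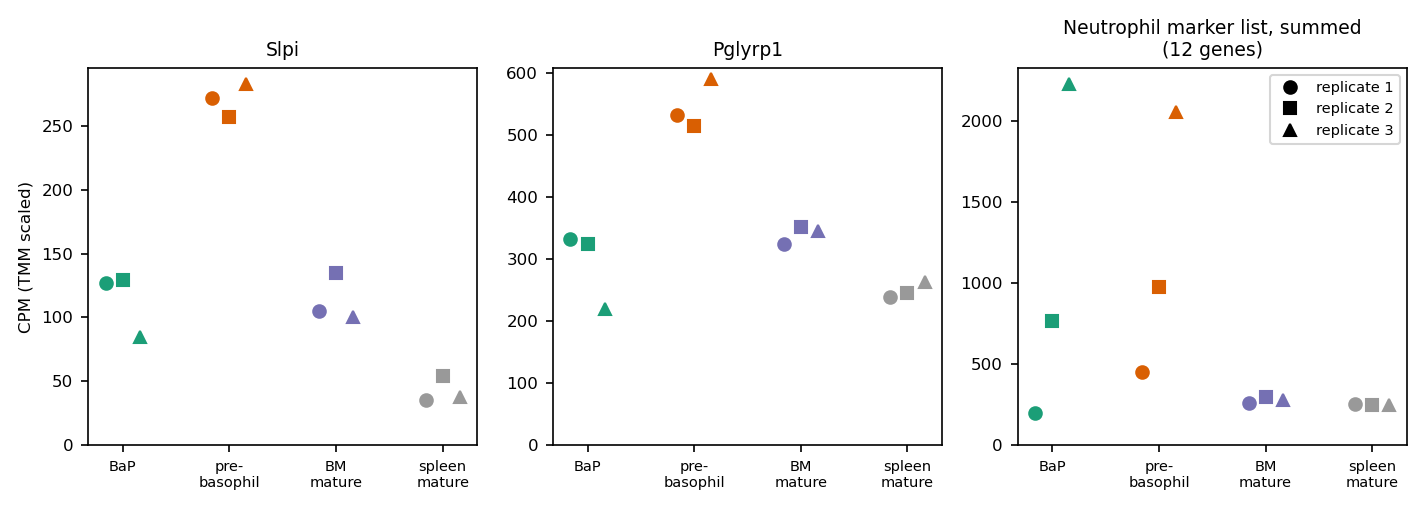
CPM of Slpi and Pglyrp1 and the summed CPM of 12 neutrophil markers (y axes, from 0) in each library of the 4 groups (x axis), with the replicate number as the symbol. Slpi and Pglyrp1 are higher in each pre-basophil library than in every neighbour library. The marker sum ranges from 197 to 2226 CPM in BaPs, where replicate 3 is the highest, and from 449 to 2056 in pre-basophils.

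Among granule proteases, Gzmc passed each comparison. Gzmc (chromosome 14, 56231441 to 56234656) encodes granzyme C, a serine protease known from cytotoxic lymphocytes. It stood at 70.4, 55.7 and 64.1 CPM in the pre-basophil libraries, 40.1, 32.5 and 15.01 in BaPs and 33.7, 23.04 and 29.02 in BM mature basophils. Pre-basophils lay above every neighbour library, and the log2 difference was 1.15 against BaP (SE 0.27, adjusted p = 0.0215) and 1.15 against BM mature (SE 0.27, adjusted p = 0.00599). The difference to BaP was 0.79 without BaP replicate 3 (adjusted p = 0.00459). Of 9 granule proteases tested, 4 were called higher than the mean of the neighbours and 3 of them, Gzmc, Mcpt8 and Prss34, lay above both, against 5 with the block. It was again 3, of a contrast that called 6, without BaP replicate 3. For Mcpt8 and Prss34, mouse basophil proteases, the difference to BaP did not pass and was near 0 without that library. Mcpt8 stood at 12340.0, 10887 and 12449 CPM in pre-basophils, 11979.7, 10618 and 5008 in BaPs and 1828, 1738 and 1627 in BM mature basophils, and its difference to BaP was 0.37 (adjusted p = 0.39) or 0.065 without that library. Prss34 stood at 49584, 42584 and 43264 CPM in pre-basophils and 48653, 45396 and 17009 in BaPs, with a difference of 0.29 that became -0.067 without it. Pre-basophils were 6.87-fold and 8.91-fold above BM mature basophils.

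Tnf (chromosome 17, 35199381 to 35202007), the gene of tumour necrosis factor, was the 1 called peak among 16 cytokines and chemokines tested. It stood at 307, 294 and 328 CPM in the pre-basophil libraries, 193, 203 and 94.9 in BaPs and 164, 138 and 158 in BM mature basophils. Pre-basophils lay above every neighbour library, and the difference was 0.93 against BaP (SE 0.23, adjusted p = 0.0272) and 1.01 against BM mature (SE 0.23, adjusted p = 0.00456). Of the 16, 11 passed above BaP and 7 below BM mature (4.29% and 11% of all genes tested). The list's medians were 1.16 to BaP and -0.52 to BM mature. Il4 stood at 72.4, 45.3 and 29.7 CPM in BaPs, 118, 68.9 and 95.6 in pre-basophils and 123, 108 and 132 in BM mature basophils. Il6 stood at 1781, 1454 and 816, 3718, 2614 and 3275 and 2873, 1614 and 2607 CPM in the same order, and Il13 at 9.79, 4.48 and 4.36, 35.5, 12.7 and 22.4 and 24.8, 11.8 and 14.8. Their pre-basophil and BM mature libraries overlapped, and only the rise from BaP passed the test (adjusted p = 0.0395, 0.014 and 0.0235). With the block, 3 cytokines in all were called above both neighbours in the contrast, and without BaP replicate 3 it was 2.

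**Figure D3:**
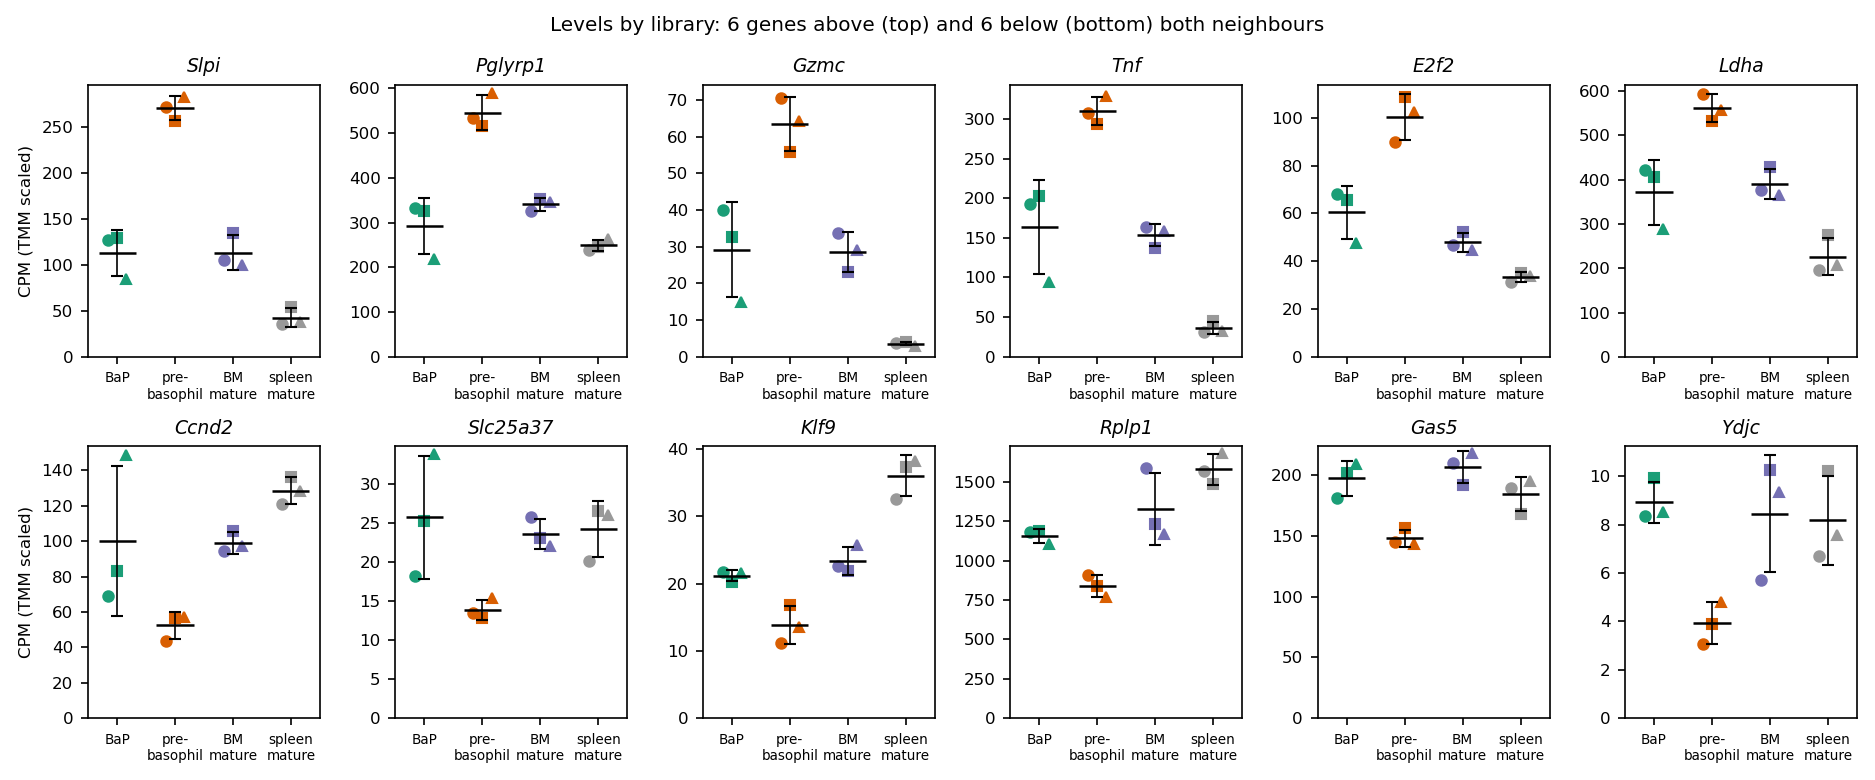
CPM (y axis, from 0) in each library of the 4 groups (x axis) for 6 genes above and 6 below both neighbours. Horizontal lines are the mean and error bars the SD of 3 libraries, symbols are replicates 1 (circle), 2 (square) and 3 (triangle). The 3 pre-basophil libraries lie outside the range of the 6 BaP and BM mature libraries in every panel. The genes were called on these same values.

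The cell cycle lists were far above BM mature basophils. Against BaP, the G2 and mitosis list was near its level and the S phase list had a median below it. Of 49 genes of G2 and mitosis tested, 44 were called above the mean of the neighbours and 30 of these lay above both. These shares were 2.78% and 1.55% over all genes tested. The list's median difference was 0.13 to BaP and 2.74 to BM mature. Of 46 genes of DNA replication and S phase, 24 were called above that mean and none lay above both, with medians of -0.47 and 2.005. Of the S phase genes 4 passed below BaP (2.79% of all genes tested), against 7 with the block. It was 29 without BaP replicate 3, where 5.97% of all genes did (6.47% above, and 19.8% above and 15.8% below BM mature). Over all genes tested the medians were -0.022 and -0.0044. Without BaP replicate 3 the count above both was 19 in G2 and mitosis, and the median to BaP was -0.04. With scaling to the library total alone that median was -0.05, so the sign of the difference to BaP depended on that library and on the scaling. Mki67, the gene of the proliferation marker Ki-67, stood at 797, 644 and 681 CPM in pre-basophils, 804, 638 and 431 in BaPs and 109, 97.9 and 54.1 in BM mature basophils. Top2a, DNA topoisomerase II alpha, stood at 323, 262 and 278, 421, 310.0 and 239 and 44.6, 36.6 and 26.96 CPM, and Pcna, the sliding clamp of replication, at 286, 218 and 281, 423, 298 and 238 and 95.5, 80.9 and 94.2. All 3 overlapped between pre-basophils and BaPs and lay far above BM mature basophils.

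**Figure D4:**
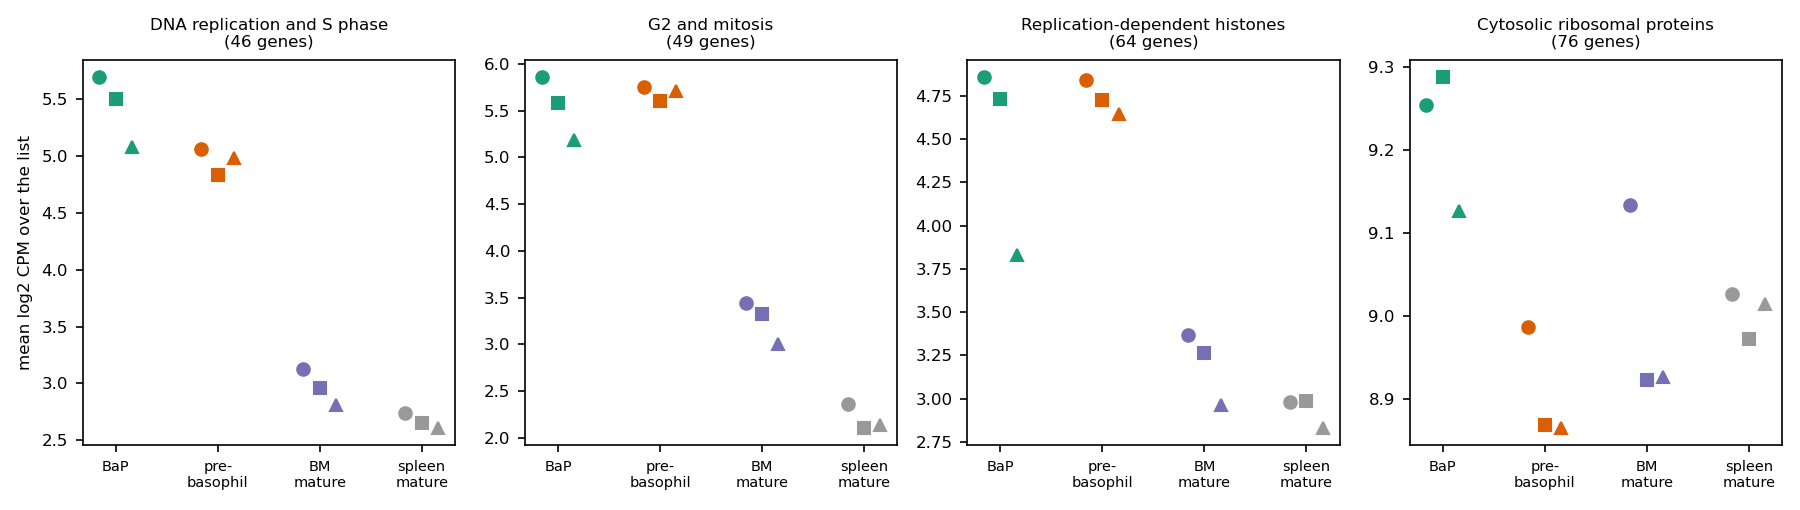
Mean log2 CPM over the genes of 4 lists (y axes, which do not start at 0) in each library of the 4 groups (x axis), with replicates 1 to 3 as circle, square and triangle. All 3 pre-basophil libraries lie below all BaP libraries for ribosomal protein genes and, by a small margin to BaP replicate 3, for S phase genes. For G2 genes and histones they lie within the range of the BaP libraries, whose lowest is replicate 3.

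Of the G2 and mitosis list, Ccnb2, cyclin B2, stood at 107, 88.4 and 100.8 CPM in the pre-basophil libraries, 80.98, 64.1 and 48.6 in BaPs and 13.7, 11.5 and 9.36 in BM mature basophils, with a difference of 0.62 against BaP (SE 0.17, adjusted p = 0.0423) and 3.12 against BM mature (SE 0.20, adjusted p = 8.48e-07). It was the 1 gene of this list that passed each comparison, against 3 with the block and 2 without BaP replicate 3, and it kept both calls without 3 of the 9 libraries taken out in turn (adjusted p against BaP up to 0.16). Its call was also lost with RLE factors, with scaling to the library total, with the TCC-like scheme and with the 9 BM libraries only. Cenpa, the centromeric histone, stood at 156, 149 and 167 CPM in pre-basophils and 132, 109 and 89.1 in BaPs (adjusted p = 0.0562). Cdc25b, a phosphatase that activates cyclin-dependent kinase (CDK) 1, passed both comparisons only without BaP replicate 3, where its difference to BaP was 0.67 (adjusted p = 0.0293) against 0.56 with it. Ckap2, a spindle protein, had differences of 0.50 to BaP and 2.33 to BM mature.

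Among 19 tested CDK inhibitors, G1 cyclins and E2F genes, a list added after values were seen, 7 were called above both neighbours and 1 below both. E2f2 (chromosome 4, 136172394 to 136196057), an E2F transcription factor, stood at 89.7, 109 and 102 CPM in the pre-basophil libraries, 68.1, 65.5 and 47.5 in BaPs and 46.8, 52.3 and 44.6 in BM mature basophils. Pre-basophils lay above every neighbour library, the difference was 0.74 against BaP (SE 0.14, adjusted p = 0.00824) and 1.07 against BM mature (SE 0.15, adjusted p = 0.000138), and it passed each comparison without any 1 of the 9 libraries. E2f2 was also the 1 peak called among 50 lineage transcription factors tested, against 3 without BaP replicate 3. Cdkn2d, which encodes the CDK4 and CDK6 inhibitor p19INK4d, stood at 98.9, 89.6 and 97.4 CPM in the pre-basophil libraries, 75.2, 65.5 and 55.8 in BaPs and 56.3, 62.8 and 64.8 in BM mature basophils, with a difference of 0.55 against BaP (SE 0.13, adjusted p = 0.0228) and 0.63 against BM mature (SE 0.13, adjusted p = 0.0025). Cdkn1a, the inhibitor p21, overlapped with BaP at 200.4, 147 and 197 against 159, 115 and 73.4 CPM, and its difference of 0.66 to BaP did not pass (adjusted p = 0.153). Cdkn3, a phosphatase of CDKs, had differences of 0.76 to BaP (adjusted p = 0.164) and 3.05 to BM mature.

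Ccnd2 went the other way. Ccnd2 (chromosome 6, 127125162 to 127152193) encodes cyclin D2, the partner of CDK4 and CDK6 at the start of the cycle, and stood at 43.9, 56.5 and 57.4 CPM in the pre-basophil libraries, 69.04, 83.2 and 148 in BaPs and 94.2, 106 and 96.97 in BM mature basophils. All 3 pre-basophil libraries were below all neighbours, with BaP replicate 3 the highest of all. The difference was -0.94 against BaP (SE 0.22, adjusted p = 0.0237) and -0.91 against BM mature (SE 0.22, adjusted p = 0.00826), and without BaP replicate 3 it was -0.53 to BaP (adjusted p = 0.013). The call against BaP of Ccnd2 or Cdkn2d was lost without any 1 pre-basophil library (adjusted p up to 0.0947 and 0.0953), and both calls were lost with scaling to the library total.

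Histone genes were high in pre-basophils and, less evenly, in BaPs. The summed level of the list that follows was 3667, 3233 and 1726 CPM in BaPs, 4557, 3840 and 3819 in pre-basophils and 2363, 1986 and 1868 in BM mature basophils. By mean log2 CPM, BaP replicate 3 lay above BM mature (3.83 against 3.37, 3.26 and 2.96). Of 64 replication-dependent histone genes tested, also a list added later, 32 were called above the mean of the neighbours and 30 lay above both. Over all genes tested these shares were 2.78% and 1.55%. The list's medians were 0.24 to BaP and 1.69 to BM mature. Without BaP replicate 3 the count above both was 20 and the median to BaP -0.09. H2bc12 stood at 28.5, 29.9 and 23.2 CPM in pre-basophils and 21.7, 24.05 and 10.7 in BaPs, and H4c1 and H2bc1 at 13.1, 12.4 and 10.6 and 18.4, 11.4 and 13.4 CPM in pre-basophils against 11.5, 9.19 and 4.65 and 11.7, 13.4 and 5.81 in BaPs. The linker histones H1f2 and H1f0 were higher in pre-basophils than in every neighbour library. H1f2 stood at 1738, 1295 and 1404 CPM in the pre-basophil libraries, 1103, 942 and 498 in BaPs and 1059.8, 775 and 879 in BM mature basophils. H1f0, the replication-independent linker histone of differentiating cells, stood at 1358, 1068 and 1149.7 CPM in the pre-basophil libraries, 929, 697 and 328 in BaPs and 778, 553 and 609 in BM mature basophils. Each passed both comparisons without BaP replicate 3 and with the block, and missed the one to BaP with all libraries and no block (adjusted p = 0.0503 and 0.0685). Most core histone mRNAs lack a poly(A) tail and share near-identical sequence, so their counts in a poly(A)-captured library are uncertain.

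Further genes passed each comparison by smaller differences. Ldha, lactate dehydrogenase A, stood at 594, 532 and 557 CPM in the pre-basophil libraries, 422, 406 and 287 in BaPs and 376, 429 and 366 in BM mature basophils, with a difference of 0.59 against BaP (SE 0.16, adjusted p = 0.038) and 0.52 against BM mature (SE 0.16, adjusted p = 0.0247). It was the 1 peak called among 24 glycolysis genes, whose medians were 0.09 and 0.0047. Its call was lost without any 1 pre-basophil or BM mature library (adjusted p up to 0.145 against BaP and 0.102 against BM mature), and with RLE factors or scaling to the library total. Slc27a4, a long-chain fatty acid transporter, stood at 29.9, 32.4 and 29.4 CPM in pre-basophils, 21.5, 22.6 and 16.5 in BaPs and 17.2, 17.5 and 16.1 in BM mature basophils. Mcu, the pore of the mitochondrial calcium uniporter, Gnpat, the first enzyme of ether lipid synthesis, Ap1s2, a subunit of the AP-1 clathrin adaptor, and B9d2, a protein of the ciliary transition zone, had differences between 0.37 and 0.58. Mcu lost a call without any 1 of the 9 libraries and with the block, and Ap1s2 without 8 of the 9. Slc27a4, B9d2 and Mcu missed the comparison with BaP without BaP replicate 3 (adjusted p = 0.0556, 0.0662 and 0.0951). Slc27a4 and B9d2 also missed it without any 1 pre-basophil library (adjusted p up to 0.109 and 0.114) and lost a call with scaling to the library total.

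Muc20 and Ly6g5b had large differences at low levels. Muc20, a membrane mucin, stood at 26.8, 23.4 and 26.2 CPM in the pre-basophil libraries, 9.32, 8.02 and 4.84 in BaPs and 7.96, 15.02 and 9.55 in BM mature basophils, with a difference of 1.83 against BaP (SE 0.32, adjusted p = 0.00496) and 1.23 against BM mature (SE 0.32, adjusted p = 0.0107). Ly6g5b, of the Ly6 family of surface proteins, stood at 12.3, 10.5 and 12.8 CPM in pre-basophils, 6.93, 4.71 and 4.55 in BaPs and 2.86, 2.75 and 3.74 in BM mature basophils. The non-coding RNA 2700054A10Rik stood at 10.1, 12.9 and 13.3, 5.73, 6.13 and 6.58 and 6.05, 6.51 and 6.18 CPM. The call of Ly6g5b, Gzmc or Tnf against BaP was lost without any 1 pre-basophil library (adjusted p up to 0.0949, 0.09 and 0.0984), and that of Muc20 against BM mature without BM mature replicate 1 or 3 (adjusted p up to 0.0532).

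Among the 16 dips, 8 were protein-coding genes and 7 pseudogenes, against 12.6% pseudogenes among all genes tested. Slc25a37, mitoferrin-1, which carries iron into mitochondria for haem synthesis, stood at 13.4, 12.9 and 15.4 CPM in the pre-basophil libraries, 18.2, 25.2 and 33.8 in BaPs and 25.8, 23.04 and 22.1 in BM mature basophils, with a difference of -0.90 against BaP (SE 0.21, adjusted p = 0.0207) and -0.75 against BM mature (SE 0.21, adjusted p = 0.0173). The BaP libraries ranged widely, and BaP replicate 3, where erythroid markers were high, was the highest. Without it the difference to BaP was -0.64 (adjusted p = 0.0378). Klf9, a zinc finger transcription factor that responds to glucocorticoid, stood at 11.2, 16.8 and 13.6 CPM in the pre-basophil libraries, 21.7, 20.3 and 21.5 in BaPs and 22.6, 21.8 and 25.6 in BM mature basophils, and the difference was -0.61 against BaP (SE 0.16, adjusted p = 0.0336) and -0.75 against BM mature (SE 0.16, adjusted p = 0.00313). Its BaP libraries agreed closely, and without BaP replicate 3 the difference to BaP was -0.60. Ydjc stood at 3.07, 3.89 and 4.80 CPM in the pre-basophil libraries, 8.36, 9.90 and 8.52 in BaPs and 5.73, 10.3 and 9.36 in BM mature basophils. Of the 9 fits without 1 library, Slc25a37 passed both comparisons in 5, Klf9 in 4 and Ydjc in 4 (adjusted p against BaP up to 0.0944, 0.128 and 0.0971). A call of Slc25a37 was also lost with scaling to the library total, and one of Klf9 with the 9 BM libraries only.

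Arhgap5 and Rnf122 had the largest differences among the 16 dips, at low counts. Arhgap5, a GTPase-activating protein, stood at 1.12, 1.46 and 0.960 CPM in pre-basophils, 2.63, 2.59 and 8.33 in BaPs and 6.68, 4.76 and 6.93 in BM mature basophils. Rnf122, a RING finger protein, for which no fold is given, stood at 0.839, 0.487 and 0.480, 1.67, 0.943 and 4.16 and 2.23, 2.003 and 2.995 CPM, with 8 counts in all over the 3 pre-basophil libraries. Neither passed against BaP without BaP replicate 3 (adjusted p = 0.153 and 0.256).

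Ribosomal protein genes and pseudogenes were a further part of the dips. Rplp1, an acidic protein of the large subunit's stalk, stood at 906, 840.3 and 767 CPM in the pre-basophil libraries, 1179, 1186 and 1104 in BaPs and 1587, 1231 and 1167 in BM mature basophils, with a difference of -0.46 against BaP (SE 0.13, adjusted p = 0.0425) and -0.66 against BM mature (SE 0.13, adjusted p = 0.00162). Of 76 cytosolic ribosomal protein genes tested, a list added after values were seen, 50 had a level below both neighbours, against 21.2% of all genes tested, and 3 of these, Rplp1, Rps23 and Rps9, were called in the contrast. The count called below both was 7 with the block and 15 without BaP replicate 3, and that of each comparison called was 1, 2 and 5. The list's medians were -0.30 to BaP and -0.12 to BM mature, and the second was 0.10 with scaling to the library total. Its summed level was 57404, 59476 and 54211 CPM in BaPs, 47309, 45064 and 46007 in pre-basophils and 54679.8, 48530.0 and 51608 in BM mature basophils. Gas5, a non-coding host gene of small nucleolar RNAs that overlaps Zbtb37 on the other strand, stood at 145, 156 and 143 CPM in the pre-basophil libraries, 181, 202 and 209 in BaPs and 209, 192 and 218 in BM mature basophils, with a difference of -0.42 against BaP (SE 0.11, adjusted p = 0.0331) and -0.48 against BM mature (SE 0.11, adjusted p = 0.00444). Gm10073 stood at 295, 257 and 288 CPM in pre-basophils and 372, 381 and 397 in BaPs, and Gm11942 and Gm3362 at 117, 106 and 95.6 and 91.7, 81.1 and 83.6 in pre-basophils against 143, 157 and 146 and 115, 122 and 111 in BaPs. Rpl30-ps9 and Rpl30-ps10, pseudogenes of a ribosomal protein gene by name, and the pseudogenes Gm14044, Gm46649 and Gm8213 were further dips, with levels in pre-basophils of 31.6, 31.9 and 29.6, 26.6, 31.4 and 31.8, 22.1, 18.5 and 23.5, 18.7, 19.96 and 19.4 and 24.6, 20.2 and 21.9 CPM. The sources used here do not say to which gene a read shared by a ribosomal protein gene and its pseudogenes was assigned, so these may not be separate observations. Rplp1 passed both comparisons in 3 and Gas5 in 5 of the 9 fits without 1 library. A call of Rplp1 was also lost with RLE factors and with the 9 BM libraries only, and one of Gas5 with scaling to the library total and without a low-count filter.

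The genes gained without BaP replicate 3 held 14 peaks and 19 dips. They were part of the 27 and 33 called in that fit, which are 0.183% and 0.224% of 14723 genes tested. Spp1, osteopontin, stood at 70.7, 52.1 and 67.5 CPM in the pre-basophil libraries, 43.00, 28.5 and 15.01 in BaPs and 19.7, 11.8 and 24.1 in BM mature basophils. Its difference to BaP was 1.17 with all libraries (adjusted p = 0.0521) and 0.82 without BaP replicate 3 (adjusted p = 0.0401). Adora2b, the A2B adenosine receptor, stood at 169, 116 and 136 CPM in the pre-basophil libraries, 56.6, 36.3 and 27.3 in BaPs and 111, 64.6 and 94.5 in BM mature basophils, rose 3.54-fold from BaP (adjusted p = 0.00098) and missed the threshold against BM mature with all libraries (adjusted p = 0.0609), but passed without BaP replicate 3 (adjusted p = 0.0085) and with the block (adjusted p = 0.0164). The dips gained included the ribosomal protein genes Rps23, Rpl27a, Rpl23a and, named after its values were seen, Rps10, with differences to BaP of -0.38, -0.41, -0.43 and -0.34, and Sephs2, a selenophosphate synthetase, and H13, the signal peptide peptidase, with -0.50 and -0.40. In all 9 libraries H13 was at 108, 114 and 109 CPM in pre-basophils and 149, 141 and 111 in BaPs, where only BaP replicate 3 came down to the pre-basophil level.

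Genes that define the sort and the lineage mostly changed in one direction. Clec12a stood at 322, 327 and 129 CPM in BaPs, 249.9, 213 and 243 in pre-basophils and 39.1, 37.1 and 30.7 in BM mature basophils. Cd9 rose through 244, 239 and 188, 444, 400.2 and 453 and 631, 539 and 619 CPM. Cd200r3 and Itga2, the gene of CD49b, had levels between their neighbours, with differences to BaP of 0.999 and 0.86 and to BM mature of -0.24 and -1.03. Cd34 and Kit fell from BaP by 1.35 and 2.76 on the log2 scale. Without BaP replicate 3 the difference of Kit to BaP was -1.88. Since the sort selected on the products of Clec12a, Cd9, Cd200r3, Cd34 and Kit, these levels do not test the groups. Fcer1a, the ligand-binding chain of the IgE receptor, stood at 1696, 1544 and 1483 CPM in the pre-basophil libraries, 1423, 1291 and 537 in BaPs and 934, 917 and 856 in BM mature basophils. Its 3 pre-basophil libraries were the highest of the 9, with differences of 0.54 against BaP (SE 0.25, adjusted p = 0.214) and 0.80 against BM mature (SE 0.25, adjusted p = 0.0294), and without BaP replicate 3 the first was 0.21. Cxcr4, the receptor that retains cells in the bone marrow, stood at 191, 122 and 192 CPM in pre-basophils and 168, 118 and 113 in BaPs, with overlap, and fell to 96.7, 57.6 and 110.1 in BM mature basophils (adjusted p = 0.0188).

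Other gene groups gave few or no called peaks and dips. Among 42 lysosome genes, 22 had a level above both neighbours, against 18.8% of all genes tested, and 0 were called. The 22 became 12 without BaP replicate 3 (16.3% of all), and the medians of 0.18 and 0.20 became 0.07 and 0.21. Among 35 interferon-stimulated genes, 20 lay below both, against 21.2% of all genes tested, and 0 were called. The 20 became 8 without BaP replicate 3 (15.6% of all), and the median to BaP changed from -0.23 to 0.18 without that library. Of 40 ribosome biogenesis genes, 19 passed below BaP (2.79% of all genes tested). Myc, a driver of cell growth, was the 1 called dip of this list. It stood at 15.7, 15.1 and 17.4 CPM in pre-basophils, 34.4, 44.6 and 44.1 in BaPs and 21.96, 13.02 and 19.7 in BM mature basophils. Myc overlapped with BM mature, as did Tbxas1, thromboxane synthase and the 1 called dip of 13 lipid mediator genes, at 13.98, 10.95 and 12.3, 27.5, 26.9 and 29.05 and 18.1, 11.5 and 13.5 CPM. Myc was also the 1 called dip of 46 immediate-early and feedback genes, which had 2 without BaP replicate 3, and whose medians were 0.58 to BaP and -0.81 to BM mature. Mvk, mevalonate kinase, was the 1 called peak of 25 cholesterol synthesis genes and Cd48, a surface ligand of lymphoid and myeloid cells, that of 24 progenitor genes. The cholesterol list had 0 without BaP replicate 3 and 2 with the block, and the progenitor list 2 peaks and 1 dip with the block. Ribosome biogenesis had 2 dips without BaP replicate 3 and 2 with the block, and the lipid mediator list gained 1 peak without that library. Mvk and Cd48 were near their BaP level, with differences of 0.11 and 0.10.

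No peak or dip was called by the contrast in 10 lists besides those of the lysosome, interferon and S phase. These were 22 genes of proteoglycan and amine storage, 22 of IgE receptor signalling, 17 CD200R, CD300 and LILR-type receptors, 40 cytokine, innate and chemoattractant receptors, 36 of ER folding, 46 of ER translocation, 45 of COPI, COPII and Golgi traffic, 33 of SNAREs and exocytosis, 22 of amino acid synthesis and 51 of oxidative phosphorylation. Without BaP replicate 3 the IgE receptor list had 2 peaks and the ER folding list 1 dip, and with the block the IgE receptor list had 1 peak and the receptor list 1 dip. Lilr4b, an inhibitory receptor gene, rose from 983, 911 and 864 CPM in BaPs to 2932, 2751 and 3017 in pre-basophils and 7909, 6144 and 7499 in BM mature basophils. Csf2rb, the common beta chain of the IL-3 receptor, and Sytl3, a granule docking protein, had differences of 0.99 and 1.22 to BaP and -0.84 and -1.35 to BM mature. Fcer1g, the signalling chain of the IgE receptor, rose from BaP by 0.61 (adjusted p = 0.0493). Ssr4, of the ER translocon, and Atp5b, of ATP synthase, fell to BM mature, with differences of 1.23 and 0.57, and Arf4, of Golgi traffic, rose, with -1.01. Neither comparison passed for Srgn (serglycin), Hspa5 (the ER chaperone BiP), Cd63 (a granule membrane tetraspanin) or Slc3a2 (an amino acid transporter chain). Srgn passed against BM mature without BaP replicate 3 (adjusted p = 0.02) and Hspa5 against BaP (adjusted p = 0.0079). Ly6e, an interferon-inducible gene, differed from BM mature (0.67, adjusted p = 0.0176).

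**Figure D5:**
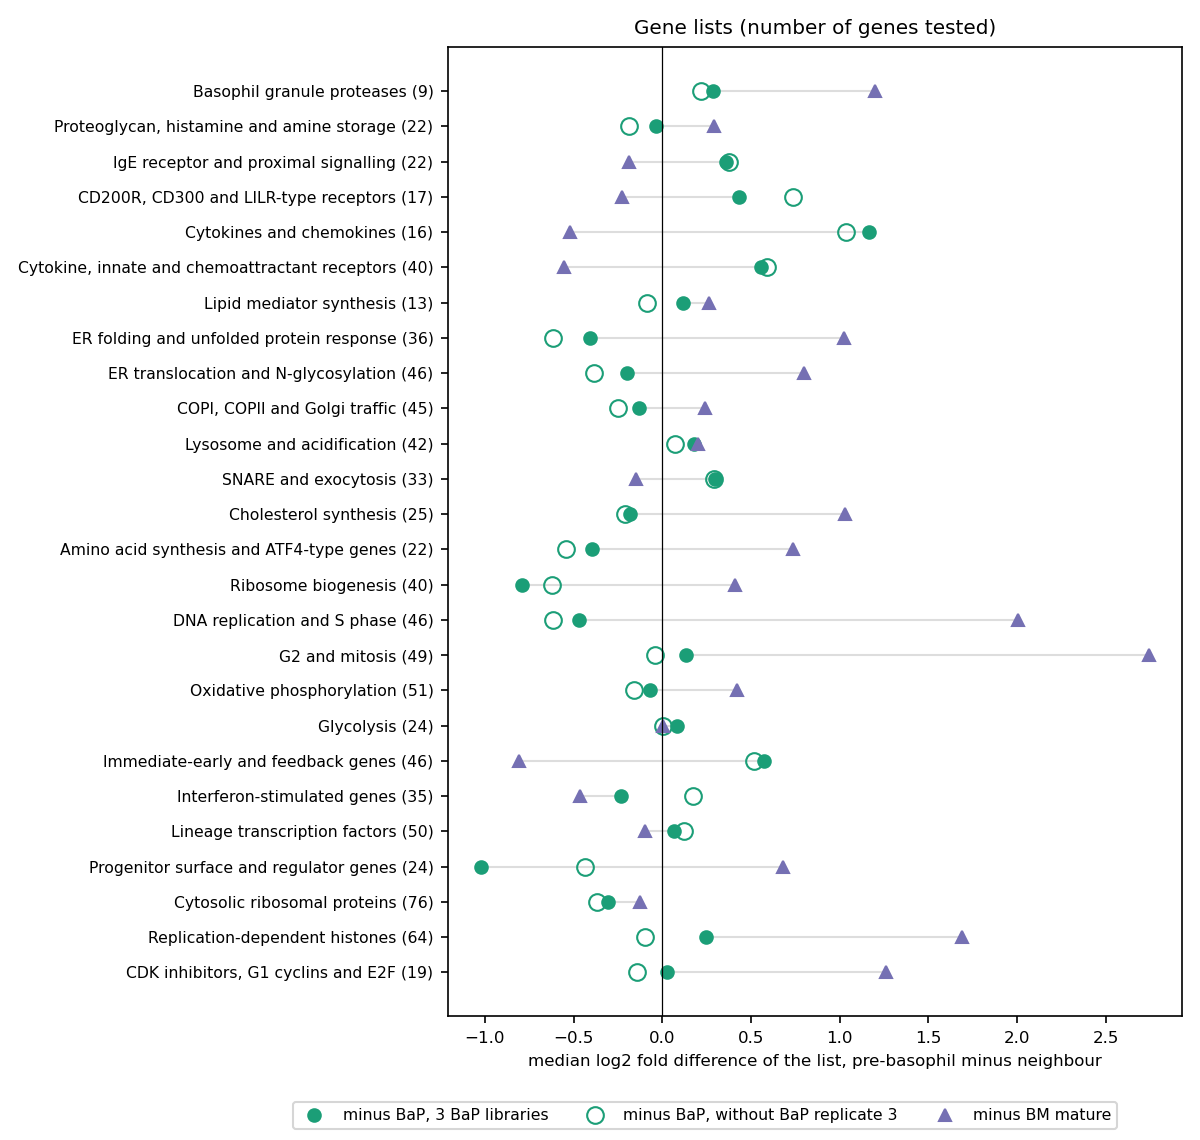
Median log2 fold difference of pre-basophils to BaP (green circles, open without BaP replicate 3) and to BM mature basophils (purple triangles) for 23 fixed and 3 added gene lists, with the number of genes tested. For G2 and mitosis, histones, the CDK and E2F list, lipid mediators and interferon-stimulated genes the side of the median to BaP changes without BaP replicate 3.

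The spleen libraries were a further group that was not compared in the choice of genes. They are no outside check, since they shared the count filter, scaling and estimate of spread of the fit. Mature basophils of both organs also share the later stage. The BM mature libraries, in contrast, were themselves compared. Of the 16 peaks, 15 were lower still in spleen than in BM mature basophils, as were 193 of the 234 called genes above both. The share over all genes tested was not counted, in this direction or the other. These counts therefore do not set the called genes apart from other genes. Slpi stood at 35.4, 54.3 and 37.8 CPM, Gzmc at 3.68, 3.96 and 3.05, Tnf at 31.4, 45.05 and 32.5 and Ccnb2 at 2.08, 2.15 and 2.12 in the spleen libraries. Of the 16 dips, 12 were higher in spleen than in BM mature basophils, as were 32 of the 45 called genes below both. Klf9 stood at 32.5, 37.3 and 38.1 CPM, Ccnd2 at 121, 136 and 128 and Rplp1 at 1569.5, 1486 and 1680.2, whereas Gas5 stood at 189, 168 and 195, overlapping with the BM mature libraries. The difference between organs was not tested.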

How the data were processed

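The authors deposited raw read counts per gene for 12 libraries, with no normalization. Per the labels and the study's methods, poly(A) RNA of sorted cells was amplified by TAS-Seq, and trimming used Cutadapt 3.4 and mapping to reference RNA Bowtie2 2.4.2. The methods name GRCm38 and the submitters' processing notes GRCm39, and strand use, molecular identifiers and the handling of reads matching several genes are not given in the sources used here. Libraries were assigned to groups by title. Library totals ran from 3596108 to 8151030 counts, where 3 counts equal 0.290 to 0.955 CPM, for counting error only.

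Counts were filtered with filterByExpr and scaled by TMM in edgeR 4.0.16 (R 4.3.3), and all 12 libraries entered 1 quasi-likelihood fit with the 4 groups as terms. The contrast was pre-basophil minus the equal-weight mean of BaP and BM mature basophils. The main test of a peak or dip took the larger of the 2 pairwise p values, with Benjamini-Hochberg adjustment over 15083 genes and a threshold of 0.05. Since it called no gene, genes were named with 2 looser definitions planned as alternatives, a choice made after that result was seen: each pairwise comparison called, and, for lists, the contrast called with a level beyond both neighbours. Named in each direction were up to 10 protein-coding genes of largest smaller difference, 5 of highest level and 5 gained without BaP replicate 3. The first and last of these needed at least 10 CPM and pre-basophil libraries that did not overlap with the neighbour libraries. Also named were 15 genes of the study and up to 4 called genes of each list, or else its gene of highest level. Only 4 dips met the first part; the other genes with each comparison called were named after their values were seen. Members and the 23 lists were chosen with earlier results of these data known, and 3 lists were added after values were seen. CPM values use TMM-scaled library totals. Scripts were tested on simulated data. DESeq2 1.42.0 and limma 3.58.1 (voom) were alternatives. Coordinates and gene types are from GENCODE M21 on GRCm38, in which 97.1% of tested genes matched 1 symbol. The 3 libraries of a group are separate pools of animals from a single experiment, so p-values measure the spread between these pools.

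Replicate numbers were checked as a pairing. Deviations from the group means correlated at 0.125 to 0.262 for all 9 pairs of BM libraries with the same number, and at -0.206 to 0.0758 for the 18 others. Deviations cancel out within a group, so positive values for the same number make the others negative on average. The 18 others are thus no separate comparison. The numbers were taken to pair the libraries from the 9 positive values, and not from a label. The fit with the replicate number as a block is given where it changed a call or moved a count by over 1.5 times. The block also covered the spleen libraries, whose numbers were not checked. Replicate 3 had the largest library total in each group, so a pairing and an effect of depth cannot be told apart.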

Additional observations from a re-analysis of the deposited data

How the results depend on the processing

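The contrast called 475 genes, of which 420 were higher and 55 lower, and its median over all genes stayed within 0.1 under every scaling. The medians against each neighbour moved to -0.23 (BaP) and 0.22 (BM mature) with scaling to the library total. With the replicate block the count lower was 114, that called below both 77 and that with each comparison called above both 31, and the peaks by the larger p value numbered 1. The block ended the call of Mcu, added those of genes such as H1f0, H1f2 and Adora2b, and moved the counts of list members given beside the lists. With the block and without BaP replicate 3, chosen after seeing the data, the contrast called 1117 genes (816 higher, 301 lower), 197 called genes lay below both, each comparison was called for 41 peaks and 45 dips, and the larger p value called 2 peaks. Without a low-count filter the contrast called 1376 genes (826 higher, 550 lower), 460 lay above and 475 below both, each comparison was called for 44 peaks and 191 dips, the larger p value called 18 peaks and 93 dips, and 340 genes did not overlap above. With a mean of at least 10 CPM, 115 genes were lower, 86 called genes lay below both, and each comparison was called for 26 peaks and 31 dips. DESeq2 called 124 lower, 85 below both and 1 peak by the larger p value. The TCC-like scheme gave 358 above both, 28 peaks with each comparison called and 1 by the larger p value, and limma-voom 31 peaks with each comparison called. With 9 BM libraries only, 8 dips had each comparison called. A test against a minimum change of 1.5-fold called 80 genes (78 higher, 2 lower), of which 57 lay above and 2 below both, and 0 peaks and 0 dips with each comparison called. Scaling to the library total left 133 genes without overlap below. Under the looser definitions the peaks numbered 234 or 16 and the dips 45 or 16 in place of 0.

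Leaving out each BM library in turn gave 163 to 774 genes in the contrast (153 to 614 higher, 10 to 161 lower), 85 to 432 called above and 7 to 109 below both, 4 to 29 peaks and 0 to 33 dips with each comparison called, 0 to 2 peaks and 0 dips by the larger p value, and 258 to 512 genes above and 255 to 444 below without overlap, where fewer libraries make overlap rarer. The contrast of genes near 0 changed sign. Srgn stood at -0.0098 and gave 0.017 with the library total, 0.016 with limma-voom and 0.028 with the TCC-like scheme. Without single libraries the contrast ran from -0.12 to 0.11 for Srgn, -0.19 to 0.067 for Itga2, -0.46 to 0.28 for Kit, -0.024 to 0.15 for Csf2rb, -0.42 to 0.0031 for Hspa5 and -0.18 to 0.086 for Sytl3. With the block and without BaP replicate 3 Itga2 gave 0.11, Kit 0.34, Csf2rb -0.023 and Sytl3 0.031. All 32 genes with each comparison called kept the direction of both differences in every alternative in which they were tested. The calls were made on these same values, so kept directions are no further support for them. Only 3 of the 32 kept both calls without each library.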
